A study of Mus musculus with 6 samples.

Results

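The transcription factor p53 (gene Trp53) and 9 of its best known target genes were followed in EMT6, an established line of mouse mammary carcinoma cells grown in culture. The genes were Trp53, Cdkn1a, Mdm2, Ccng1, Bbc3, Bax, Phlda3, Zmat3, Sesn1 and Aen. They were taken by name for their place in the pathway, with earlier results of these data known. They make up 10 of the 53465 gene identifiers in the deposited table. The series holds 6 polyadenylated RNA libraries in 2 groups. In 3 libraries, labelled parental (P VITRO), the cells were kept with an isotype control antibody, and in the other 3, labelled anti-PD-L1 resistant (PTR VITRO), with an antibody against PD-L1. Both antibodies were used at 0.5 μg/ml for more than 4 weeks, in RPMI with serum and with no immune cells, and no allele or transgene distinguishes the groups. The PTR VITRO cells were therefore exposed to the antibody in a dish and were not selected in a mouse. Nothing in the labels tells whether replicates of a group came from separate cultures, and the study calls its replicates technical where it gives no other description, as for these libraries. The p-values therefore measure the spread between libraries and do not cover variation between separately treated cultures. In bulk RNA, fewer cells expressing a gene and less of its RNA per cell cannot be told apart.

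p53 is a stress-activated transcription factor that is held at a low level in unstressed cells by the ubiquitin ligase Mdm2. When DNA is damaged or ribosome assembly fails, p53 escapes Mdm2 and switches on genes that stop the cell cycle, repair DNA or start apoptosis. Mdm2 is itself a target, which closes a negative feedback loop, and many p53 targets keep a basal level even without stress. Much of the regulation of p53 acts on the protein, which was not measured here.

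The total count ran from 17757341 to 32426739 per library, and 14217 genes passed the filter on low counts, all 10 members among them. The mean count per library was above 1000 in 8 members, 731 in Bbc3 and 114.2 in Sesn1. Krt8, an epithelial keratin, had 19778 to 34791 counts per library and Vim, a mesenchymal filament gene, 32794 to 63944, while Cdh1 (E-cadherin) had at most 1 count and Epcam 30 to 70. The leukocyte genes Ptprc and Adgre1 were at 0 in every library, and Cd3e and Itgam had at most 1 count.

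p53 binds elements made of a pair of decamers, and the promoter windows of the members were searched for them to show where such elements lie. RefSeq windows of 300 bases (250 before to 50 after an annotated start, GRCm38.p6) matched 9 of the 10 genes, all but Zmat3, with 14 windows. The p53 decamer consensus, which reads alike on both strands, was present without mismatch in 7 of these 9 genes and in 8 of the 14 windows. Over all 32817 windows of the table the share was 8.36%, and 9.55% of 26994 genes had one in any window. A match describes letters, not binding. The decamers are shown in capitals with 10 bases on each side, as the gene's own strand reads, because they mark the members that carry the p53 consensus close to a start.
Trp53, chr11:69580284-69580293, 75 bases before the start: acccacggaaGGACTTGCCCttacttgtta
Mdm2, chr10:117710935-117710944, 186 bases before the start: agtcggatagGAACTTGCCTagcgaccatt
Bax, chr7:45467090-45467099, 201 bases before the start: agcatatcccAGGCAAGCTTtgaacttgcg
Sesn1, chr10:41887266-41887275, 173 bases before the second start: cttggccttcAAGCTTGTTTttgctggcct
Aen, chr7:78895937-78895946, inside both of its overlapping windows: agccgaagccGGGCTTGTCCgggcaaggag

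The windows of Cdkn1a and Ccng1 held pairs of decamers. A pair without mismatch and with at most 13 bases between its decamers was found in 1 member window, that of the upstream start of Cdkn1a, against 0.0731% of all windows. Allowing 1 mismatch per decamer outside its central C and G, a choice made after the first search, added the adjacent pairs below, and such pairs were present in 2 of the 14 member windows and in 2.71% of all windows. Capitals mark the 2 decamers.
Cdkn1a, chr17:29090906-29090937, exact pair with a spacer of 12 bases: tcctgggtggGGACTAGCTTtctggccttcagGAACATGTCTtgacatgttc
Cdkn1a, chr17:29090928-29090947, adjacent pair from 51 bases before the start: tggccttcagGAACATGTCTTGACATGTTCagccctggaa
Ccng1, chr11:40755462-40755481, adjacent pair from 195 bases before the start: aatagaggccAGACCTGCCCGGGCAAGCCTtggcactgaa
Both Cdkn1a pairs lie in the window of its upstream start. The windows of Bbc3 and Phlda3, of the downstream start of Cdkn1a and of the upstream start of Sesn1 held no decamer. That says only that these letters are not in these windows.

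Levels were compared between genes per length, as CPM (counts relative to library size), scaled by the upper quartile and divided by the exon length of the gene in kilobases. In P VITRO cells Cdkn1a had the highest level per length of the 10 genes, 84.6 ± 3.06 CPM per kb (SD, n = 3), and Sesn1 the lowest, 1.07 ± 0.0821, a 79.0-fold range. Between them, in falling order, stood Ccng1 at 79.6 ± 5.35, Phlda3 at 74.2 ± 0.849, Bax at 66.7 ± 2.6, Trp53 at 50.8 ± 1.15, Mdm2 at 41.8 ± 0.441, Aen at 21.3 ± 0.680, Bbc3 at 13.5 ± 0.416 and Zmat3 at 7.14 ± 0.478 CPM per kb. The ranges of Cdkn1a and Ccng1 overlapped in P VITRO, as did those of Ccng1 and Phlda3, so their order is not settled there, and the other neighbours did not overlap. In PTR VITRO the order of the 10 genes was the same and no neighbours overlapped, with Cdkn1a at 81.8 ± 3.40 CPM per kb and Sesn1 at 1.12 ± 0.108. The exon length joins the exons of all annotated transcripts, 11435 bases for Zmat3, so a gene read mainly as a short transcript is placed too low.

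**Figure D1:**
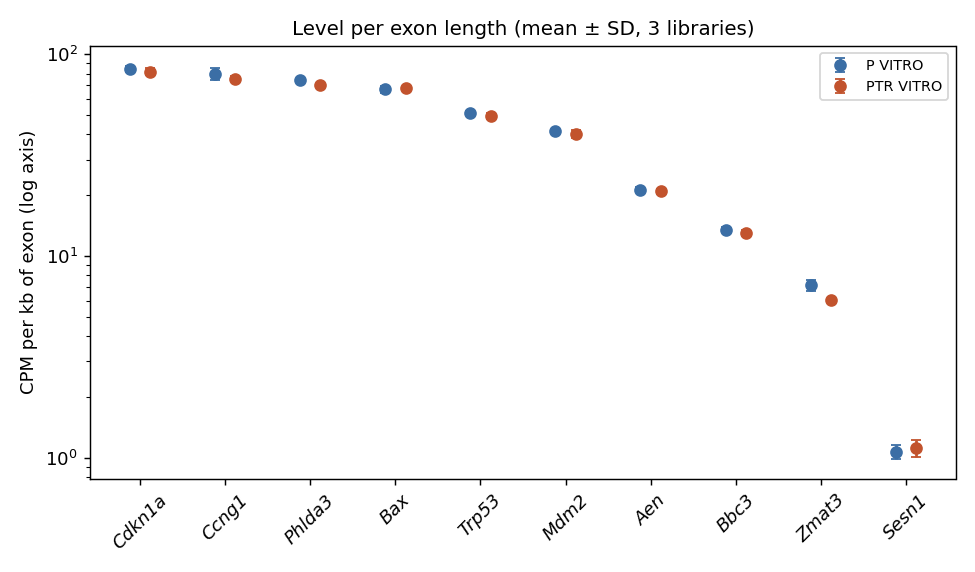
Level per exon length of p53 and 9 target genes (CPM per kb of exon, log axis) in P VITRO (blue) and PTR VITRO (red), points and bars being mean ± SD of 3 libraries. Cdkn1a stands highest at 84.6 CPM per kb in P VITRO and Sesn1 lowest at 1.07, and the order is the same in both groups.

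The comparison of PTR VITRO with P VITRO asked whether cells kept with the antibody carry a different level of p53 RNA or of its targets. None of the 10 members passed an adjusted p of 0.05 in edgeR's quasi-likelihood test, against a background of 0.246% of all genes tested (35 of 14217, 0.0985% higher and 0.148% lower). DESeq2 called 1 member, Zmat3, beside 0.781% of all genes (111 of 14217), and limma-voom called 0, beside 0.218% (31 of 14217). At an unadjusted p below 0.05 there were 2 members, Zmat3 and Phlda3, both lower in PTR VITRO, while 11.4% of all genes reached that level, 6.13% of all genes in the lower direction. The groups did not overlap in 3 members, Zmat3, Phlda3 and Mdm2, all lower in PTR VITRO, beside 17.6% of all genes in either direction, 9.33% lower and 8.27% higher. Values of the log2 fold change (PTR VITRO over P VITRO) were below 0 in 8 of the 10 members and in 51.5% of all genes. Its median was -0.05 over the members and -0.0040 over all genes tested. With 10 genes, these counts are given as a description.

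**Figure D2:**
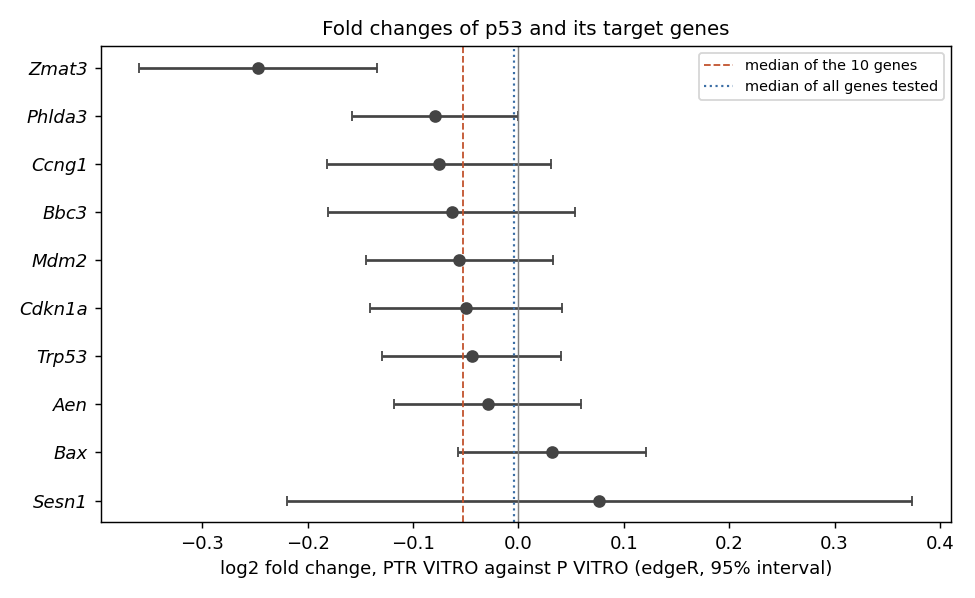
Log2 fold change of each gene (PTR VITRO against P VITRO, edgeR, bars 95% interval), with the median of the 10 genes (dashed, -0.05) and of all genes tested (dotted, -0.0040). Zmat3 has the largest difference at -0.25, the interval of Phlda3 ends just below 0, and the other 8 intervals include 0.

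Trp53 (ENSMUSG00000059552.13, GRCm38, chromosome 11, 69580359 to 69591873, plus strand) encodes p53 itself. Its level was 210.5, 201.2 and 205.1 CPM in the 3 P VITRO libraries and 207.7, 195.9 and 194.1 CPM in the PTR VITRO libraries. The groups overlapped, because PTR VITRO replicate 1 lay above the P VITRO replicates 2 and 3. The fitted log2 fold change, -0.04 with an SE of 0.0386, was not called (edgeR adjusted p 0.708), and its 95% interval, in percent, ran from -8.58% to 2.87%. Leaving out 1 library moved the log2 fold change between -0.07 (without PTR VITRO replicate 1) and -0.02 (without P VITRO replicate 1). The processed pseudogene Trp53-ps, which shares 353 bases with Trp53 at 97.7% identity, had a count of 0 in every library.

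Mdm2 (ENSMUSG00000020184.15), the ubiquitin ligase that marks p53 for degradation and is switched on by it, had 210.4, 211.6 and 214.7 CPM in P VITRO and 193.3, 209.3 and 210.3 CPM in PTR VITRO. The highest PTR VITRO library lay just under the lowest P VITRO library, and PTR VITRO replicate 1 lay apart from the rest. In log2 units the difference was -0.06 ± 0.0401 (SE; edgeR adjusted p 0.642; interval -9.52% to 2.28%). Without PTR VITRO replicate 1 the log2 fold change was -0.02, and in the other fits that left out 1 library it reached -0.07.

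Ccng1 (ENSMUSG00000020326.7) encodes a cyclin of the G type that recruits a phosphatase to Mdm2 and so also bears on p53 turnover. It had 275.2, 263.1 and 299.99 CPM in P VITRO and 256.1, 270.1 and 269.4 CPM in PTR VITRO. P VITRO replicate 3 stood above the other 5 libraries, and the groups overlapped. Its difference in log2 units was -0.08 ± 0.0482 (SE, interval -11.8% to 2.16%) with an edgeR adjusted p of 0.594, and it was -0.02 without P VITRO replicate 3 and -0.12 without P VITRO replicate 2.

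Among the targets that halt the cell cycle, Cdkn1a (ENSMUSG00000023067.13, GRCm38, chromosome 17, 29090976 to 29100727, plus strand) encodes p21, an inhibitor of cyclin-dependent kinases and the classical readout of p53 activity. It had 293.1, 313.01 and 295.4 CPM in P VITRO and 277.6, 292.8 and 301.5 CPM in PTR VITRO. The highest PTR VITRO library lay above 2 of the P VITRO libraries, so the groups overlapped. For Cdkn1a the fit gave -0.05 on the log2 scale, with an SE of 0.0413 and an edgeR adjusted p of 0.694. Its 95% interval ran from -9.28% to 2.92%. The value was -0.02 without PTR VITRO replicate 1 and also without P VITRO replicate 2, and -0.07 without PTR VITRO replicate 3. An annotated transcript, AC167363.2, matches 262 bases of Cdkn1a at 100% identity on the opposite strand and has no count in the deposited data. Whether its reads entered the count of Cdkn1a was not tested.

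The members that act in apoptosis gave values close to each other in both groups. Bbc3 (ENSMUSG00000002083.13) encodes PUMA, a protein that binds and neutralises the survival members of the BCL2 family. It had 28.04, 29.7 and 28.4 CPM in P VITRO and 26.6, 28.02 and 28.06 CPM in PTR VITRO, and the groups overlapped narrowly. For Bbc3 the log2 difference was -0.06 ± 0.0532 (SE), its interval ran from -11.8% to 3.83%, and its edgeR adjusted p was 0.696. With 1 library left out it lay between -0.08 and -0.03, the latter without PTR VITRO replicate 1.

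Bax (ENSMUSG00000003873.11), which forms pores in the outer mitochondrial membrane, had 109.4, 101.2 and 104.9 CPM in P VITRO and 107.8, 106.5 and 108.3 CPM in PTR VITRO. All 3 PTR VITRO libraries lay inside the range of P VITRO. Bax gave a log2 difference of 0.03 ± 0.0405 (SE), an interval of -3.89% to 8.77% and an edgeR adjusted p of 0.818. It was 0.0053 without P VITRO replicate 2 and 0.07 without P VITRO replicate 1. An annotated gene on the same strand, Gm45808, shares 192 exon bases with Bax and had at most 0.41 estimated counts.

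Aen (ENSMUSG00000030609.18), a nuclease that degrades nucleic acid during apoptosis, had 119.2, 124.4 and 126.98 CPM in P VITRO and 117.9, 123.9 and 121.6 CPM in PTR VITRO. The groups overlapped. With a log2 difference of -0.03 ± 0.0401 (SE), Aen had an interval of -7.83% to 4.20% and an edgeR adjusted p of 0.837. The difference was -0.0073 without P VITRO replicate 3, -0.0077 without PTR VITRO replicate 1 and -0.05 without P VITRO replicate 1.

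Phlda3 (ENSMUSG00000041801.5) encodes a small protein with a lipid-binding domain that competes with the survival kinase AKT for the membrane. It had 114.5, 115.5 and 117.1 CPM in P VITRO and 108.4, 109.7 and 110.5 CPM in PTR VITRO. Both groups were tight, with an SD of 1.32 and 1.05 CPM, and every PTR VITRO library lay under every P VITRO library. Its log2 fold change was -0.08 (SE 0.0356), with an unadjusted edgeR p of 0.0481 and an adjusted p of 0.432, so Phlda3 was not called. The interval of the difference ran from -10.4% to -0.0555%. The adjusted p of Phlda3 lay between 0.355 and 0.806 across the other settings of the test (edgeR, limma-voom and DESeq2) and between 0.382 and 0.719 when 1 library was left out (edgeR).

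**Figure D3:**
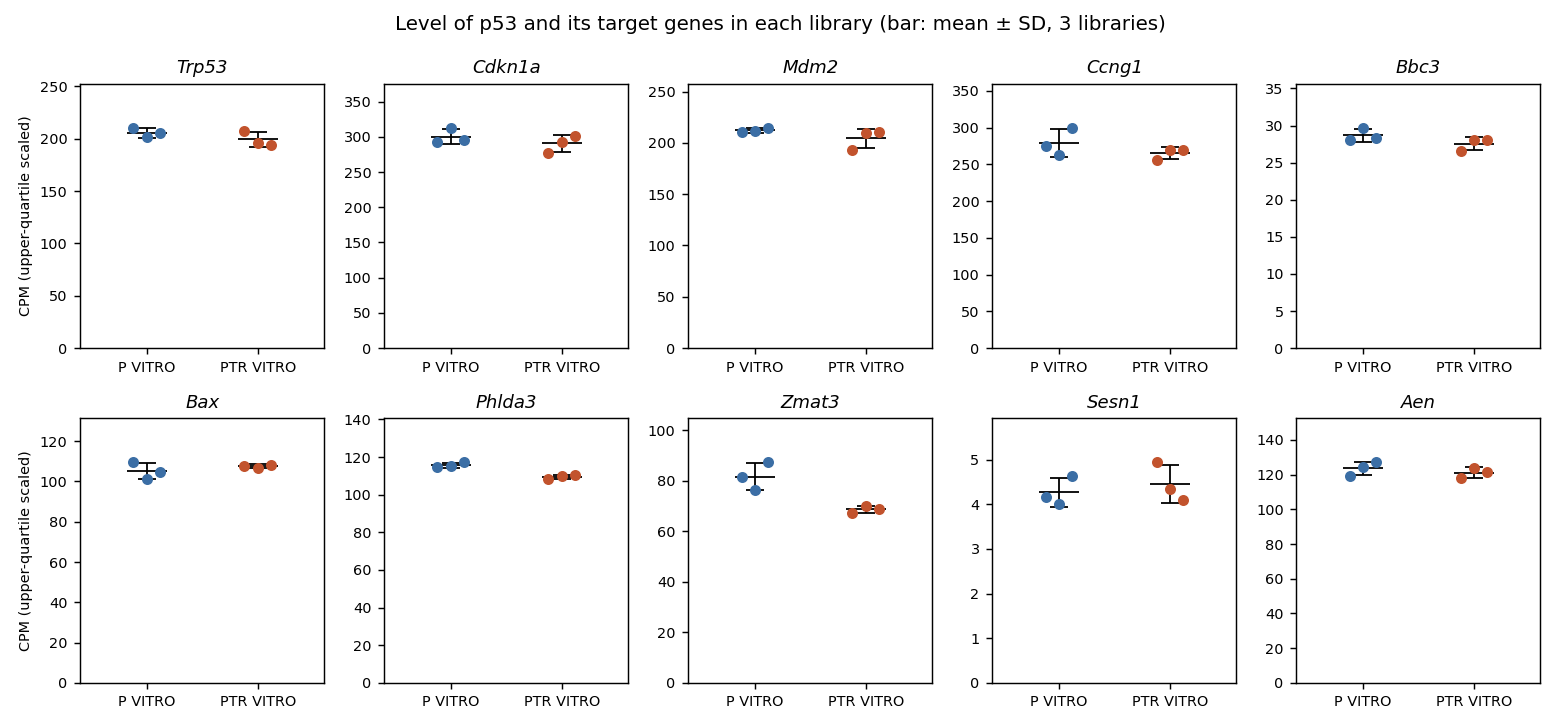
Level of each gene in every library (CPM scaled by the upper quartile, each axis starting at 0), P VITRO in blue and PTR VITRO in red, with the bar giving mean ± SD of 3 libraries. The groups of Zmat3, Phlda3 and Mdm2 do not overlap, and of these 3 Zmat3 has the largest difference of means, 81.7 against 68.8 CPM.

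Zmat3 (ENSMUSG00000027663.12, GRCm38, chromosome 3, 32334792 to 32366014, minus strand) had the largest difference of the 10 genes on the log2 scale. It encodes a zinc finger protein that binds RNA and alters the stability and splicing of transcripts, and it is a direct p53 target. Its level was 81.4, 76.4 and 87.3 CPM in P VITRO and 67.5, 70.2 and 68.7 CPM in PTR VITRO. Every PTR VITRO library lay under every P VITRO library, and the P VITRO libraries were spread more widely (SD 5.46 against 1.39 CPM).

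The log2 fold change of Zmat3 was -0.25 (SE 0.0511, 95% interval -0.36 to -0.13), or -15.7% (interval -22.1% to -8.88%). The unadjusted edgeR p was 0.000555, rank 87 of the 14217 genes tested, and the adjusted p was 0.0899, so Zmat3 missed the threshold. It passed with DESeq2 (adjusted p 0.0154), in edgeR without a filter on low counts (adjusted p 0.000499) and in edgeR without P VITRO replicate 2 (adjusted p 0.0279, log2 fold change -0.29), which is the P VITRO library with the lowest Zmat3 level. Without the filter 1.58% of all genes were called, and without P VITRO replicate 2, 0.448%. In the other 5 fits that left out 1 library the edgeR adjusted p lay between 0.151 and 0.317. The direction was the same in each of these 13 alternatives, with a log2 fold change from -0.29 to -0.20.

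**Figure D4:**
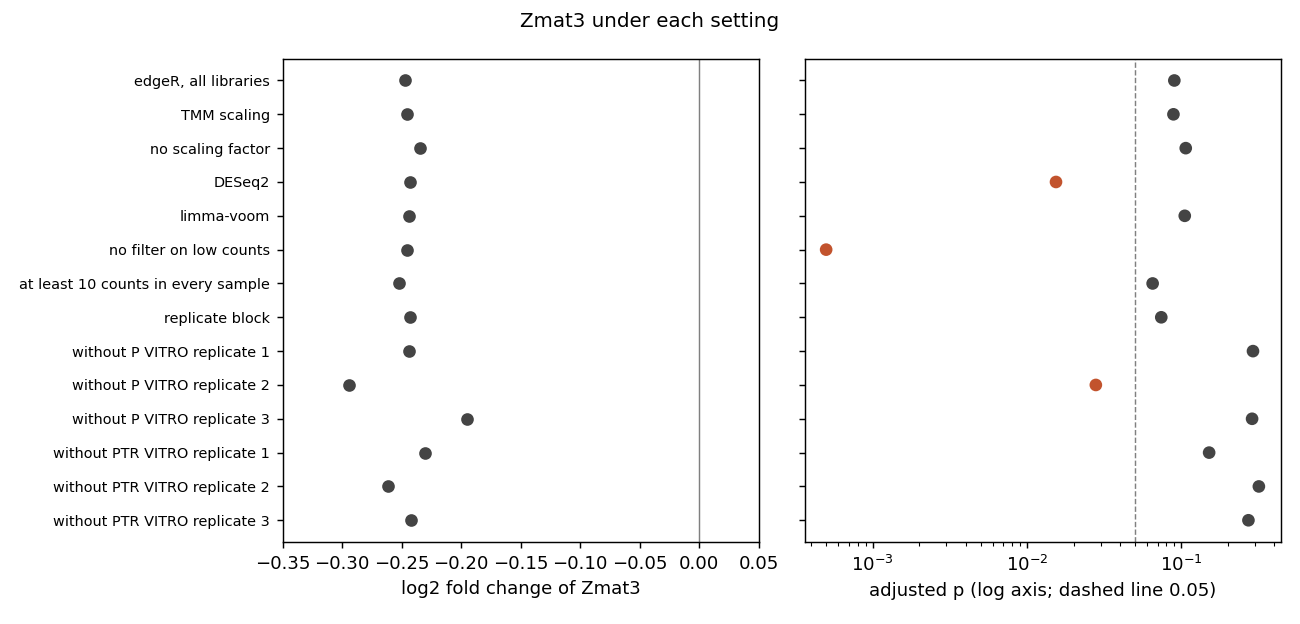
Log2 fold change (left) and adjusted p (right, log axis, dashed line at 0.05) of Zmat3 under the test reported and 13 alternatives. The fold change stays between -0.29 and -0.20 while the adjusted p runs from 0.000499 to 0.317, with red points for the 3 settings under 0.05.

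Sesn1 (ENSMUSG00000038332.13) encodes sestrin, a stress protein that restrains the growth kinase mTOR. It had 4.15, 4.01 and 4.63 CPM in P VITRO and 4.93, 4.34 and 4.10 CPM in PTR VITRO, and the groups overlapped. The fitted difference was 0.08 ± 0.135 on the log2 scale (SE), at an edgeR adjusted p of 0.876. With a mean count of 114.2 per library it was the most thinly counted member, and its interval of -14.1% to 29.6% was the widest. The sign turned without PTR VITRO replicate 1 (-0.0066).

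A further 32 genes known as p53 targets were examined, of which 30 were tested. None was called by edgeR (background 0.246%), 2 had an unadjusted p below 0.05 (background 11.4%), and 19 were lower and 11 higher in PTR VITRO, with a median log2 fold change of -0.04 against -0.0040 over all genes. Without P VITRO replicate 3 this median was -0.0041. DESeq2 and limma-voom also called 0. Among those averaging 50 counts or more, the differences of Fdxr, Sesn2 and Pidd1 were the 3 largest in this list. Both genes with an unadjusted p below 0.05 were lower in PTR VITRO, Sesn2 and Tnfrsf10b, the latter named after a look at its values.

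Sesn2, the paralogue of Sesn1 and also a target of the amino acid stress factor ATF4, had 136.9, 128.5 and 138.4 CPM in P VITRO and 121.5, 115.7 and 120.6 CPM in PTR VITRO. The groups did not overlap. The log2 difference of Sesn2 was -0.17 ± 0.0420 (SE), at an unadjusted edgeR p of 0.00171 and an adjusted p of 0.154, and Sesn2 was called in edgeR without the filter on low counts (adjusted p 0.0283). Per exon length Sesn2 stood at 38.7 ± 1.54 CPM per kb in P VITRO, far above Sesn1 at 1.07 ± 0.0821.

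Fdxr, a mitochondrial reductase, was at 5.45 ± 0.875 and 4.57 ± 0.439 CPM (log2 difference -0.25 ± 0.150, edgeR adjusted p 0.568), and Pidd1, a death domain scaffold, at 2.72 ± 0.247 and 2.96 ± 0.0573 CPM (log2 difference 0.13, edgeR adjusted p 0.802). When P VITRO replicate 2 was left out, Fdxr was at -0.39 and Pidd1 at 0.05 on the log2 scale. Fdxr was at -0.17 when PTR VITRO replicate 2 was left out. Tnfrsf10b, a death receptor, was at 53.7 ± 3.19 and 49.3 ± 1.80 CPM (log2 difference -0.12, edgeR adjusted p 0.416). The p53 target Pmaip1, which encodes the apoptosis activator NOXA, was listed at 0 in all 6 libraries, and Trp73, a p53 paralogue, had at most 1 count.

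The regulators of p53 were described by 20 genes, all tested. None was called (background 0.246%), 12 were higher and 8 lower in PTR VITRO, and the median log2 fold change was 0.01, or 0.0019 without PTR VITRO replicate 3 and 0.02 without P VITRO replicate 1. DESeq2 and limma-voom also called 0. Unadjusted p-values below 0.05 were found for 3 of them, Chek1 and Sirt1, which were higher in PTR VITRO, and Trp63, which was lower, beside 11.4% of all genes. Chek1, a kinase of the replication checkpoint, had 24.4, 24.9 and 26.1 CPM in P VITRO and 31.8, 29.8 and 26.3 CPM in PTR VITRO. The groups were apart by a narrow gap, and Chek1 differed by 0.23 ± 0.0698 on the log2 scale (SE), with an edgeR adjusted p of 0.234, and of 0.0392 without the filter on low counts.

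Sirt1, a deacetylase that acts on p53, differed by 0.19 on the log2 scale (edgeR adjusted p 0.293), and it is named after a look at its values. Trp63, a paralogue of Trp53, was at 12.7 ± 0.727 and 10.6 ± 1.43 CPM (log2 difference -0.25, edgeR adjusted p 0.386), and its log2 difference was -0.38 once PTR VITRO replicate 1 was left out. Cdkn2a, the locus of the Mdm2 inhibitor ARF and of the kinase inhibitor INK4A, was at 3.75 ± 0.348 and 4.39 ± 0.890 CPM (log2 difference 0.23, edgeR adjusted p 0.665). The gene-level table cannot separate these 2 products.

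Other members of the apoptosis and cell cycle families beside which p53 targets act also gave no call. Of 13 BCL2 family genes 9 were tested, with 0 called (background 0.246%), 0 at an unadjusted p below 0.05 (background 11.4%) and a median log2 fold change of -0.03. The median was 0.0094 without P VITRO replicate 1 and -0.05 without P VITRO replicate 2. The 3 largest log2 differences were those of Bok (-0.17, edgeR adjusted p 0.523), Bcl2l11 (-0.10, adjusted p 0.683) and Bid (-0.06, adjusted p 0.583). With P VITRO replicate 1 left out, these differences were -0.09, -0.04 and -0.03. Bok was at -0.11 without PTR VITRO replicate 2, and Bcl2l11 at -0.16 without replicate 1 of that group and at -0.15 without P VITRO replicate 2. DESeq2 and limma-voom also called 0 of the 9. Of 6 other inhibitors of cyclin-dependent kinases 4 were tested and 0 called (background 0.246%), with 0 at an unadjusted p below 0.05 (background 11.4%) and 0 called by DESeq2 or limma-voom. With 9 and 4 genes tested, these counts do not set either list apart from the background. The 3 largest log2 differences were -0.29 in Cdkn2d, 0.23 in Cdkn2a and 0.07 in Cdkn1b, with edgeR adjusted p-values of 0.608, 0.665 and 0.832. With PTR VITRO replicate 1 left out, Cdkn2d was at -0.58 and Cdkn2a at 0.05, and with replicate 2 of that group left out, at -0.16 and 0.37. Cdkn1b was at -0.06 without PTR VITRO replicate 1, its sign turned, and at 0.18 without PTR VITRO replicate 2.

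The products of p53 and p21 also act downward, since p21 lets the DREAM complex shut off cell cycle genes. Of 16 such genes, all tested, none was called (background 0.246%), and 9 were higher and 7 lower in PTR VITRO, with a median log2 fold change of 0.0093. That median was -0.02 without PTR VITRO replicate 1 and 0.08 without P VITRO replicate 1, so its sign rests on single libraries. DESeq2 and limma-voom also called 0. The 3 with an unadjusted p below 0.05 were all higher in PTR VITRO, where 5.26% of all genes were. Cenpf, a kinetochore gene, was at 26.5 ± 0.392 and 30.6 ± 0.501 CPM (log2 difference 0.21 ± 0.0491, edgeR adjusted p 0.140). Cdk1, the mitotic kinase, was at 199.3 ± 6.05 and 213.7 ± 7.59 CPM (log2 difference 0.10 ± 0.0395, edgeR adjusted p 0.355). The groups of both genes did not overlap.

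**Figure D5:**
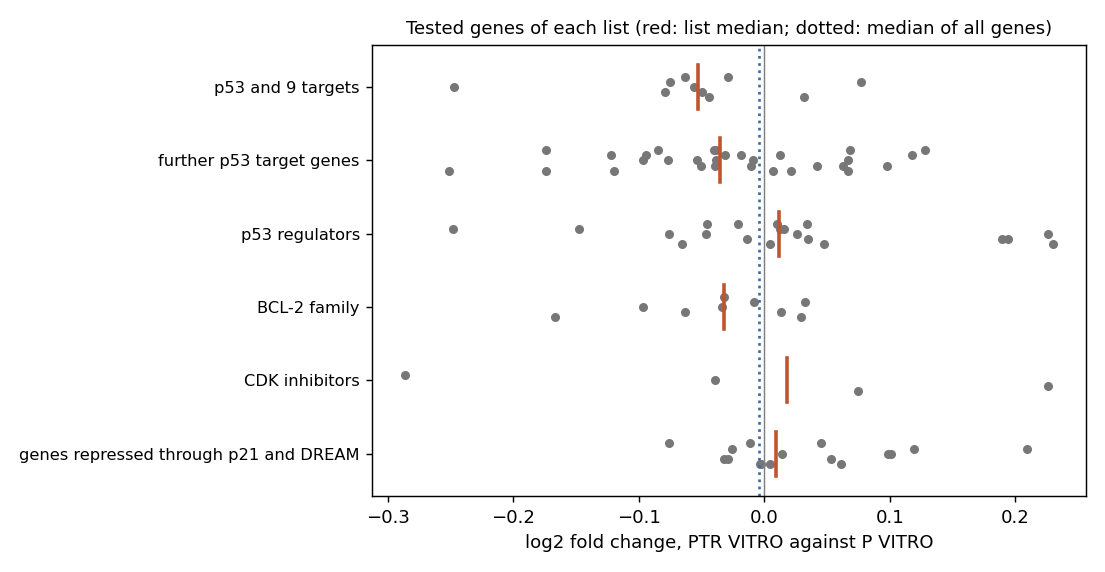
Log2 fold change (PTR VITRO against P VITRO) of the tested genes of each list, each point a gene, with the list median in red and the median of all genes tested dotted. No point is a called gene, the medians of the lists lie between -0.05 and 0.02, and the lowest value is that of Cdkn2d, -0.29.

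The genes whose profile over the 6 libraries lay closest to that of Trp53 were Itsn1, Atxn10 and Bub1b, and to that of Cdkn1a, Col18a1, Nrp2 and Abce1. Likeness was the root mean square difference of centred log2 CPM, which was 0.0063, 0.0086 and 0.0121 for the genes nearest Trp53 and 0.0094, 0.0096 and 0.011 for those nearest Cdkn1a, against a median of 0.085 and 0.0942 over 11804 genes with a mean count of at least 50. None of these 6 genes is in the lists described above. The likeness rests on 6 libraries that differ little and is a description.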

How the data were processed

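The authors prepared stranded polyadenylated RNA libraries, aligned reads with STAR 2.6.0a to GRCm38, and deposited RSEM 1.3.1 expected counts per gene, unscaled. Whether RSEM was told the strand is not stated. Every sample column was used. Symbols, positions and exon lengths came from GENCODE annotation of the same build.

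Expected counts were rounded, filtered with filterByExpr (minimum count 10, minimum total 15) and scaled by the upper quartile. PTR VITRO was tested against P VITRO in edgeR 4.0.16 (R 4.3.3) by its quasi-likelihood method without covariates. Benjamini-Hochberg adjustment ran over all 14217 genes, and a gene is called at an adjusted p under 0.05. Standard errors and 95% intervals derive from the F statistic. CPM values are mean ± SD over 3 libraries; a floor of 3 counts corresponds to 0.0925 to 0.169 CPM, for counting error only. The fits were tested on simulated data with changes larger than those of the members, so differences as small as theirs were not covered.

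The members, lists and rules were chosen with earlier results of these data known. Beside the members, genes are named when called or, per list, as the 3 largest changes with a mean count of at least 50; others named were chosen after their values were seen. Alternatives were TMM, no scaling factor, DESeq2 1.42.0, limma-voom (limma 3.58.1), no filter, at least 10 counts in every sample, a replicate block and leaving out each library. Copies were searched with BLAST+ 2.17.0 (identity at least 95% over at least 200 bases). Some genes that these rules name are not reported here.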

Additional observations from a re-analysis of the deposited data

How the results depend on the processing

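Called members numbered 0 in the test reported and 1, Zmat3, with DESeq2, 1 without a filter on low counts, and from 0 to 1 across the fits that left out 1 library. Without a filter, 1 further p53 target (Sesn2) and 1 regulator (Chek1) were called. The 35 calls over all genes numbered 400 when no filter was used, 111 under DESeq2, 54 when every sample needed 10 counts or more, and 68 under a block for replicate number. Leaving out 1 library gave 8 (without PTR VITRO replicate 3) to 64 calls (without P VITRO replicate 2). The cause was not tested. Samples of equal number were not treated as pairs. The correlation of their deviations was 0.109, 0.095 and -0.0557, and that of samples of unequal number ran from -0.158 to 0.0674. Such values cannot settle whether samples of equal number are pairs. Under the block 0 members were called. Of 70 comparisons of a member with another setting, 68 kept direction and side of the threshold and 2 were stronger (Zmat3). Of 60 with 1 library left out, 58 did, 1 was stronger (Zmat3) and Sesn1 turned without PTR VITRO replicate 1 (-0.0066, range -0.0066 to 0.14). Cdkn1b, from a further list, turned without the same library (-0.056, range -0.056 to 0.18). The median over the members ran from -0.07 to -0.02, and over all genes from -0.0109 to 0.0084. Among the 10 members, Sesn1 had the lowest count and the widest interval.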
